A study of Mus musculus with 2 samples.

Results

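Klf2-positive regulatory T cells were examined among T cells of mouse melanoma tumours. The members were chosen by their own UMI counts (a UMI, or unique molecular identifier, stands for 1 captured RNA molecule). A barcode needed at least 500 genes, at most 10% mitochondrial UMIs and 1 hashtag holding at least 80% of its hashtag UMIs. It also needed at least 1 UMI of Foxp3 and of Klf2, and none of Cd8a, Cd8b1, Mki67, Top2a, Areg or Il10. Of 16969 barcodes, 10713 passed the first 3 conditions, 850 of these had a Foxp3 UMI, 227 lacked the 6 other genes, and 99 of the 227 had a Klf2 UMI. The 128 with Klf2 at 0 formed the nearest comparison. The other comparison was conventional CD4 T cells, with a Cd4 UMI, no Foxp3 UMI and the same 6 genes at 0. There were 1197 of them, and 924 had a Klf2 UMI.

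The series title ties a tryptophan product of the gut bacterium Lactobacillus reuteri to checkpoint therapy, and the design compared tumour T cells of mice given L. reuteri (LR) with those of control mice. All mice were C57BL/6J, 4 per condition; the controls are called untreated in the design text and PBS treated in the protocol, and their hashtags read PBS. The sources used here do not state age, sex, tumour line or dosing. Per the labels' protocols, cells enriched for CD90.2 were sorted as live CD8+ cells, 8000 per mouse, while other labels call them CD3+ T cells, so the CD4-lineage cells described here lie outside the stated sort. After sorting, cells were mixed within each condition before all went onto 1 lane, so treatment and handling at that step cannot be told apart. The 99 cells were 32 from LR mice (4, 15, 4 and 9 from mice 1 to 4) and 67 from PBS mice (5, 21, 31 and 10 from mice 6 to 9). Their UMIs summed to 341478, with a median of 3267 per cell, against 3547 in the Klf2-0 cells and 2944 in the Klf2-positive conventional cells.

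Regulatory T cells are CD4 T cells that restrain immune responses under the transcription factor FOXP3. In resting lymphocytes the zinc finger factor KLF2 drives genes for leaving tissue and homing to lymph nodes, among them S1pr1, the receptor for the lipid that draws cells into blood and lymph. Signals through the antigen receptor lower KLF2, and regulatory T cells that settle in tumours usually carry activation receptors such as CTLA4, OX40 (Tnfrsf4) and 4-1BB (Tnfrsf9).

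Over all 99 cells pooled, the regulatory T cell part of the name held against markers that the gate did not use. Pooled over mice, Il2ra (the high-affinity IL-2 receptor chain) was at 243 CPM (UMIs of the gene per 1000000 UMIs) in the Klf2-positive cells and at 6.96 CPM in the Klf2-positive conventional cells. Ikzf2 (the factor Helios) was at 348 against 14.6 CPM, and Ctla4 (an inhibitory receptor) at 1095 against 107 CPM. The word resting was met only in part. At least 1 of 8 activation genes (Tnfrsf4, Tnfrsf9, Ccr8, Gzmb, Klrg1, Icos, Tigit and Pdcd1) had a UMI in 82 of the 99 cells (82.8%, exact 95% Clopper-Pearson interval 73.9% to 89.7%), and 3 or more of them did in 57 (57.6%). At least 1 of 4 resting or homing genes (S1pr1, Ccr7, Tcf7 and Lef1) had a UMI in 63 cells, and 46 cells had UMIs of both kinds, 36 of activation genes alone and 17 of resting genes alone. Both short lists were made after levels were seen and serve as a description. In the Klf2-positive conventional cells, at least 1 activation gene was found in 474 of 924 (51.3%) and 3 or more in 52 (5.63%). In the Klf2-0 regulatory cells, 3 or more activation genes were found in 107 of 128 (83.6%). Of the resting genes, 3 or more were found in 22 of the 99 members (22.2%), in 4 of the 128 Klf2-0 cells (3.12%) and in 577 of the 924 conventional cells (62.4%). Pooled, the members lay between the other 2 sets by these counts, but they were not alike. With 1 Foxp3 UMI, 3 or more activation genes were found in 13 of 46 members (28.3%). With 2 or more Foxp3 UMIs they were found in 44 of 53 (83.0%). In the Klf2-0 cells the same 2 classes gave 30 of 47 (63.8%) and 77 of 81 (95.1%), higher than the members in each. For 3 or more resting genes the counts were 14 of 46 (30.4%) and 8 of 53 (15.1%) in the members. In the Klf2-0 cells they were 3 of 47 (6.38%) and 1 of 81 (1.23%). The cells are therefore called by their rule, Klf2-positive regulatory T cells, without the word resting. All intervals on counts and shares here cover counting error only.

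The Klf2 threshold cut through a continuous range. Of the 227 gated cells, 128 had no Klf2 UMI, 38 had 1, 15 had 2, 8 had 3 and 38 had 4 or more, up to 25. The Foxp3 threshold was also close for many members: 46 of the 99 had exactly 1 Foxp3 UMI and 53 had 2 or more. Free RNA can give such UMIs in cells that do not express a gene, so the same share was taken in CD8 cells. Exactly 1 Foxp3 UMI was found in 22 of 974 Klf2-positive cells with Cd4 and the 6 genes at 0 (2.26%, 1.42% to 3.40%) and in 43 of 3754 Klf2-positive CD8 cells with Mki67, Top2a, Areg and Il10 at 0 (1.15%, 0.830% to 1.54%). For 2 or more UMIs the shares were 2.87% (28 cells) and 0.240% (9 cells). The median depth was 2951 UMIs in these CD4 cells and 3580 in the CD8 cells. A Cd4 UMI was found in 50 of the 99 members.

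The members with 1 Foxp3 UMI and those with 2 or more differed in make-up. Pooled over mice, Ctla4 was at 454 CPM in the first and 1458 in the second, Tnfrsf4 at 389 and 1582, and Gzmb (a cytotoxic protease) at 146 and 1000. Resting genes ran the other way: Tcf7 (a factor of naive and memory T cells) was at 494 and 91.7 CPM, Ccr7 (a lymph node homing receptor) at 470 and 165, and S1pr1 at 227 and 101. Resting genes without any activation gene were found in 15 of the 46 and in 2 of the 53. Only PBS mice 7 and 8 had at least 5 cells of each kind. In both, Ctla4 was lower in the cells with 1 Foxp3 UMI (318 against 1174 CPM in PBS mouse 7, 345 against 1192 in PBS mouse 8), and so were Tnfrsf4 (171 against 1964, 247 against 1290) and Gzmb (48.9 against 2036, 123 against 1323). The identity genes Il2ra (196 against 503, 49.3 against 441) and Ikzf2 (220 against 503, 247 against 343) were lower in those cells too. Tcf7 was higher in those cells in PBS mouse 8 (765 against 49.0 CPM) and lower in PBS mouse 7 (147 against 240), so the pooled Tcf7 difference was not shared by the 2 mice. Ccr7 was higher in those cells in both PBS mouse 7 (391 against 263 CPM) and PBS mouse 8 (617 against 65.3). So was S1pr1 (171 against 71.9, 395 against 131), though from few UMIs (7 against 3 in PBS mouse 7). Depth differed as well, with medians of 2582 and 3709 UMIs, and its part in these differences was not tested.

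**Figure D1:**
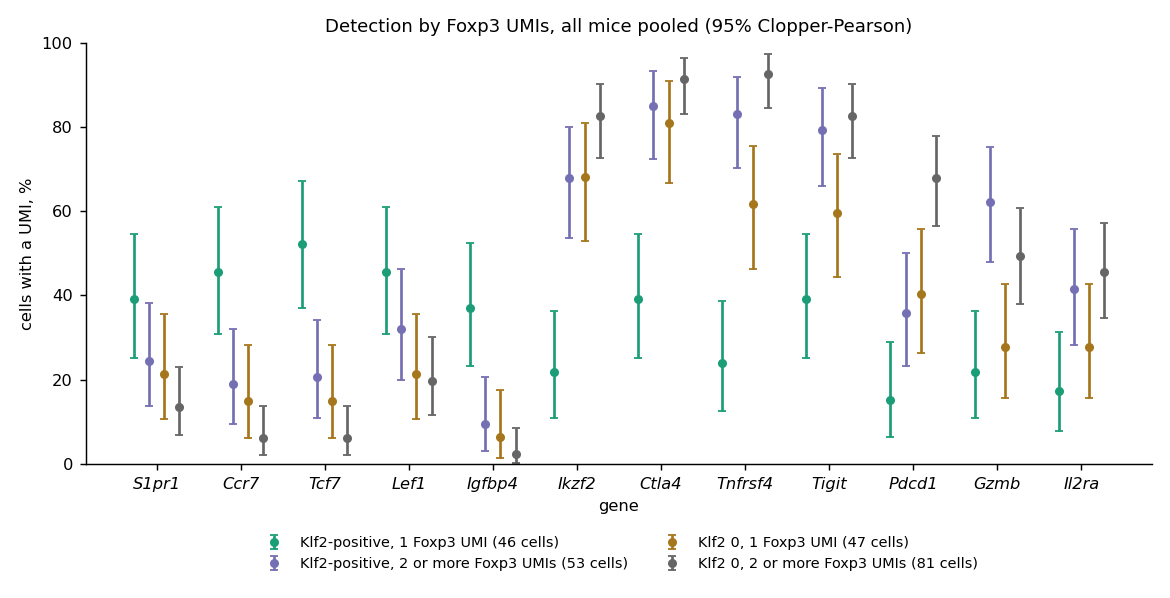
Percent of cells with a UMI (vertical axis) for 12 genes (horizontal axis) in Klf2-positive and Klf2-0 regulatory T cells, split by Foxp3 UMIs, with all mice pooled; points are shares and bars exact 95% Clopper-Pearson intervals. The 46 Klf2-positive cells with 1 Foxp3 UMI lie apart from the other 3 sets at Ikzf2, Ctla4 and Tnfrsf4, where they are lowest, and at Tcf7, Ccr7 and Igfbp4, where they are highest.

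The main comparison set Klf2-positive against Klf2-0 regulatory T cells of the same tumours and asked what else differed between cells split by 1 gene. UMIs were summed per mouse and gate, and the 4 mice with at least 10 cells in both gates entered the test (LR mouse 2 and PBS mice 7, 8 and 9). Of 1209 genes tested, 9 passed an adjusted p of 0.05 in edgeR's quasi-likelihood test with mouse as a block (0.744%), 7 higher (0.579%) and 2 lower (0.165%) in the Klf2-positive cells. The 7 were Igfbp4, Ms4a4b, Ppp1r15a, Jun, Fos, Txnip and Zfp36, and the 2 were Cd74 and Serpina3g. All 9 moved the same way in each of the 4 mice, which a call with mouse as a block favours, so this is no separate support. The 9 genes that chose the cells, Foxp3 and Klf2 among them, were left out of every test.

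Jun and Fos encode the 2 kinds of subunit of AP-1, a factor that many stimuli induce within minutes. Jun was at 398, 508, 383 and 1118 CPM in the Klf2-positive cells of LR mouse 2 and PBS mice 7, 8 and 9, and at 221, 264, 174 and 378 CPM in their Klf2-0 cells. Every Klf2-positive value lay above every Klf2-0 value, and PBS mouse 9 was highest in both gates. The log2 ratio of Jun was 1.18 ± 0.24 (SE; edgeR adjusted p = 0.0169, higher in 4 of 4 mice). Fos was at 343, 435, 1150 and 1054 CPM against 191, 173, 635 and 356 CPM, so its groups overlapped although each mouse rose (log2 ratio 1.18 ± 0.24, edgeR adjusted p = 0.0169). Of the 20 genes of the antigen receptor response and AP-1, 12 passed the expression filter, 2 were called and 11 of the 12 had a log2 ratio above 0, with a median of 0.51 beside -0.00171 over all genes tested. Junb missed the threshold (0.84 ± 0.20, edgeR adjusted p = 0.0580), and Cd69, an early activation marker that also holds cells in tissue, was at 0.66 ± 0.27 (edgeR adjusted p = 0.360).

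Zfp36 encodes tristetraprolin, which shortens the life of cytokine mRNAs, and Ppp1r15a encodes GADD34, which brings a phosphatase to a translation factor under stress. Zfp36 was at 795, 1306, 1434 and 2013 CPM in the Klf2-positive cells of LR mouse 2 and PBS mice 7, 8 and 9, against 442, 701, 635 and 1045 CPM in the Klf2-0 cells. Ppp1r15a was at 488, 702, 511 and 543 CPM against 147, 255, 225 and 267 CPM, with no overlap between the gates. Its log2 ratio was 1.40 ± 0.24 (edgeR adjusted p = 0.00898), and that of Zfp36 was 1.03 ± 0.21 (edgeR adjusted p = 0.0169). Txnip, a brake on glucose uptake, was at 380, 629, 855 and 735 CPM against 235, 273, 461 and 334 CPM (log2 ratio 1.04 ± 0.23, edgeR adjusted p = 0.0335). None of the 9 glycolysis genes that passed the filter was called, and all 9 had a log2 ratio below 0, with a median of -0.39.

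Ms4a4b, a membrane protein of T cells, was at 434, 714, 639 and 351 CPM in the Klf2-positive cells of LR mouse 2 and PBS mice 7, 8 and 9, and at 294, 182, 205 and 111 CPM in the Klf2-0 cells. Here too the gates did not overlap (log2 ratio 1.52 ± 0.27, edgeR adjusted p = 0.00898). Igfbp4 encodes a secreted protein that binds insulin-like growth factors. It was at 18.1, 544, 285 and 415 CPM in the Klf2-positive cells, and in the Klf2-0 cells at 182 CPM in PBS mouse 7 and 0 in the other 3 mice (log2 ratio 2.70 ± 0.51, edgeR adjusted p = 0.0132). The 3 PBS mice carried this difference, since LR mouse 2 was at 18.1 and 0 CPM.

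The lower genes were Cd74, the invariant chain of MHC class II, and Serpina3g, an intracellular protease inhibitor that activated T cells make. Serpina3g was at 235, 36.3, 88.4 and 32.0 CPM in the Klf2-positive cells of LR mouse 2 and PBS mice 7, 8 and 9, against 427, 237, 409 and 200 CPM (log2 ratio -1.76 ± 0.35, edgeR adjusted p = 0.0154). Cd74 was at 994, 399, 108 and 128 CPM against 2370, 4813, 338 and 200 CPM (log2 ratio -2.06 ± 0.37, edgeR adjusted p = 0.00898). Cd74 was on the list of myeloid markers. Of its 11 genes, 6 had a UMI in the Klf2-positive cells, where they summed to 691 CPM (192 to 1211 per mouse in the 4 mice), and 7 in the Klf2-0 cells, where they summed to 3803 CPM (511 to 7606). C1qa and C1qb were at 0 in both gates, and Lyz2, H2-Aa and Csf1r at 0 in the Klf2-positive cells only. S100a8 and S100a9 went the other way, at 0 in the Klf2-0 cells only. The part of myeloid RNA in the Cd74 difference was not tested.

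**Figure D2:**
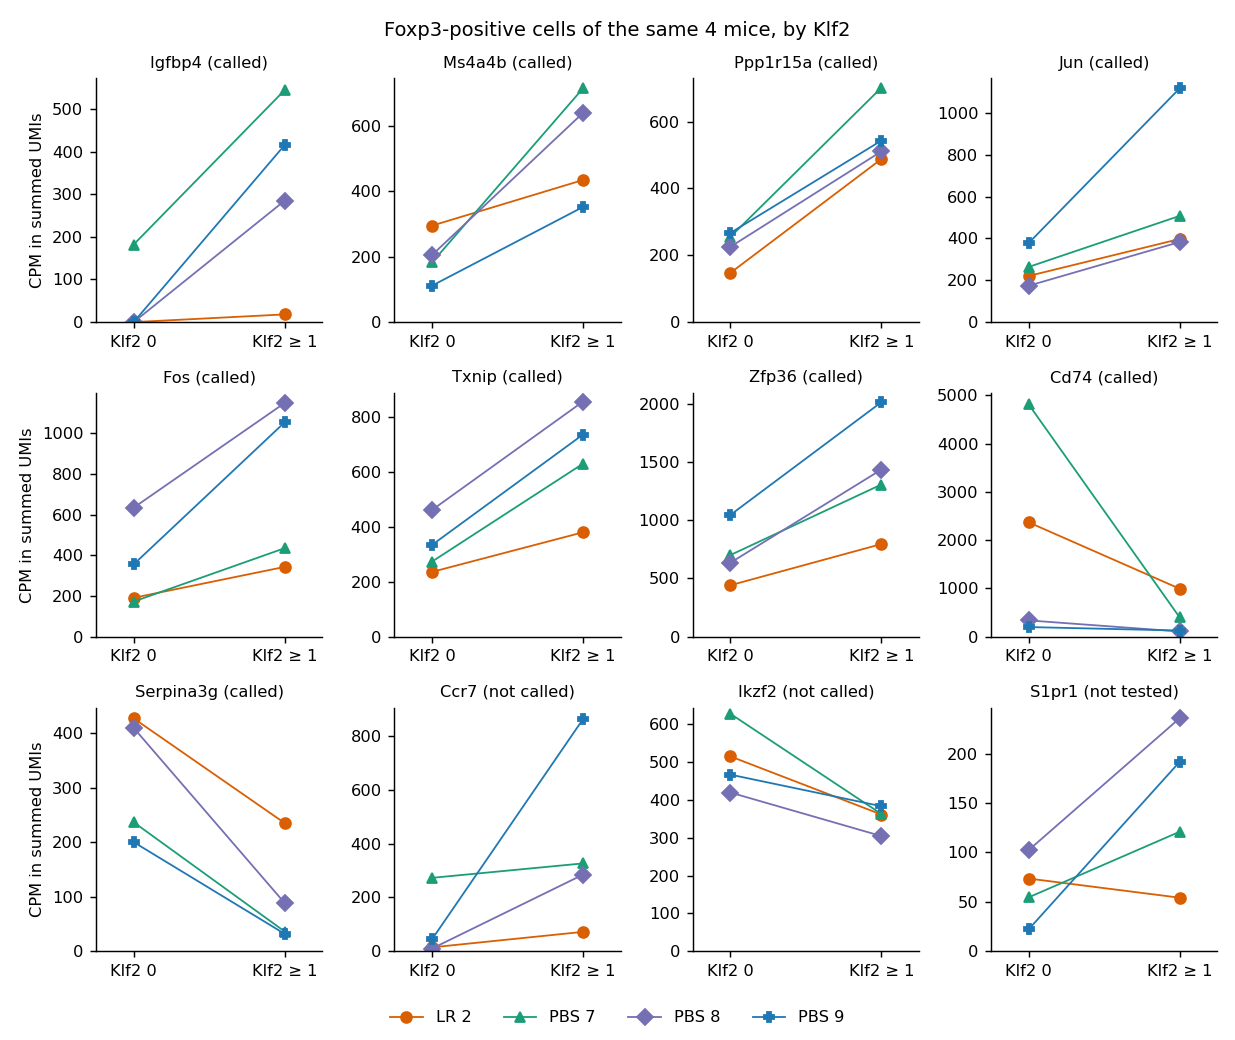
Level per mouse (vertical axes, CPM in UMIs summed over cells) in Klf2-0 and Klf2-positive regulatory T cells (horizontal axes) for 12 genes; each line joins the 2 gates of 1 of 4 mice. The lines of the 7 higher genes rise in every mouse and those of Cd74 and Serpina3g fall, while Ikzf2, not called, also falls in every mouse and S1pr1 falls in LR mouse 2.

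Homing and resting genes were less clear. S1pr1 was at 54.2, 121, 236 and 192 CPM in the Klf2-positive cells of LR mouse 2 and PBS mice 7, 8 and 9 and at 73.6, 54.6, 102 and 22.2 CPM in the Klf2-0 cells, higher in 3 of 4 mice. It did not pass the expression filter; without a filter its log2 ratio was 1.11 ± 0.43 (edgeR adjusted p = 0.747). Tcf7 and Lef1 also entered only without a filter, at 2.97 ± 0.45 (edgeR adjusted p = 6.8e-08) and 1.60 ± 0.41 (edgeR adjusted p = 0.0416). Ccr7 was tested and not called, at 1.96 ± 0.49 (edgeR adjusted p = 0.0748). No gene of the egress and homing list was called (6 of 10 tested, 5 above 0, median 0.49), and none of the resting list (8 of 20 tested, all 8 above 0, median 0.41). Of the lists of regulatory T cell identity (10 of 20 tested, 3 above 0, median -0.33) and of the effector state (14 of 24 tested, 5 above 0, median -0.18), none was called either. The aryl hydrocarbon receptor gene Ahr, which senses tryptophan products, was low in both gates (26.4 CPM and 16.7 CPM pooled), and no gene of its list of 7 passed the filter.

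The 9 calls were fragile. They fell to 0 in DESeq2 (37 genes with an unadjusted p under 0.05, against 133 in the main test), to 0 with library totals in place of TMM factors (128), and to 0 without PBS mouse 7 (70). They were 2 without PBS mouse 8, 19 without LR mouse 2 and 26 without PBS mouse 9. In members and Klf2-0 cells with 2 or more Foxp3 UMIs, in mice with at least 5 cells, 0 of 806 genes were called (60 with an unadjusted p under 0.05). There the log2 ratio was 1.21 for Ppp1r15a, 1.55 for Ms4a4b and -1.71 for Cd74 but 0.29 for Jun (edgeR adjusted p = 0.910) and 0.44 for Txnip (edgeR adjusted p = 0.745), both well below their values in the main test. All 9 genes kept their direction in every alternative that tested them.

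Transcription starts match in the RefSeq and GENCODE annotations for Jun, Fos, Ppp1r15a, Txnip and Igfbp4, all called higher. The promoters of the first 4 are shown as examples. Each is the 250 bases before the start (RefSeq, GRCm38.p6), written 5′ to 3′ on the gene's strand; Jun lies upstream on chr4:95052223-95052472 (minus strand), Fos on chr12:85473640-85473889 (plus), Ppp1r15a on chr7:45526269-45526518 (minus) and Txnip on chr3:96557707-96557956 (plus). Capitals mark 2 searched motifs, CACCC (a core of sites that KLF factors bind, either strand, so also GGGTG) and the cyclic AMP response element TGACGTCA.
Jun: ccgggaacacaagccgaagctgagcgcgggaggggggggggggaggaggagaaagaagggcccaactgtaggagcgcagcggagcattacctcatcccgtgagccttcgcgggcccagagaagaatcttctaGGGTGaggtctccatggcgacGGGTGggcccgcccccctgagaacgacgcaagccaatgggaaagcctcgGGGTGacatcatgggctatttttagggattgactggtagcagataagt
Fos: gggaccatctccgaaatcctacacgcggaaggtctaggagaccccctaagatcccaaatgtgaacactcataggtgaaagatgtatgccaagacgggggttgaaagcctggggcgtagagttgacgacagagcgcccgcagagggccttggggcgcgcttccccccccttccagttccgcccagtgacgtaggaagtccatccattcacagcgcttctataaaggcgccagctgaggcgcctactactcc
Ppp1r15a: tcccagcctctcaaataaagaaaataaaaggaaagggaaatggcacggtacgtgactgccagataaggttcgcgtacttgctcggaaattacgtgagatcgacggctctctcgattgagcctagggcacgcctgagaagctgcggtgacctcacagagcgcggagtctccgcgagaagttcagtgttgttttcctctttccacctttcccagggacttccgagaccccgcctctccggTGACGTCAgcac
Txnip: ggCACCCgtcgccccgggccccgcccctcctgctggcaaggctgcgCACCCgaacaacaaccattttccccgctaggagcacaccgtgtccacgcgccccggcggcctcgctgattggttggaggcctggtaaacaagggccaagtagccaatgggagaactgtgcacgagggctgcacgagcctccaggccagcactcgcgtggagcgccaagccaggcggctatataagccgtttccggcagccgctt
CACCC was found in 5 of 8 promoters looked at (Klf2, Jun, Txnip, Ms4a4b and Igfbp4, and not in Fos, Ppp1r15a or Zfp36), beside 52.0% of 32851 mouse promoters of the same length. TGACGTCA was found in Ppp1r15a alone of the 8, beside 1.55% of all; the AP-1 element TGACTCA was found in none, beside 4.46%; and the CArG box, the site of serum response factor, was found in Zfp36 alone, beside 1.47%. Only matches to these fixed patterns within the 250 bases were sought. Variant sites and sites farther away were not looked for, so a motif not found here does not mean that the gene lacks such a site. The motifs were chosen after the called genes were known, and a match is a description, not a bound site.

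Levels also followed the number of Klf2 UMIs within the gate, although this split uses the gene that chose the cells and is given as a description. In the 128 cells with 0, the 38 with 1, the 23 with 2 or 3 and the 38 with 4 or more Klf2 UMIs, S1pr1 was at 49.997, 14.02, 182 and 271 CPM. Cells with 1 Klf2 UMI were thus no higher in S1pr1 than cells with none (exact Poisson 95% interval 1.70 to 50.7 CPM, from 2 UMIs). Tcf7 was at 27.8, 84.1, 212 and 414 CPM and Ccr7 at 66.7, 91.2, 303 and 459 CPM, rising at each step. Ikzf2 went from 574 to 505, 288 and 211 CPM, and Ctla4 stayed between 1263 and 1332 CPM up to 3 UMIs and was at 745 CPM with 4 or more. Zfp36 was at 683, 996, 1696 and 1762 CPM, and Serpina3g at 311, 133, 90.9 and 52.7 CPM. Median depth in these 4 sets was 3547, 3327, 2863 and 3260 UMIs.

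**Figure D3:**
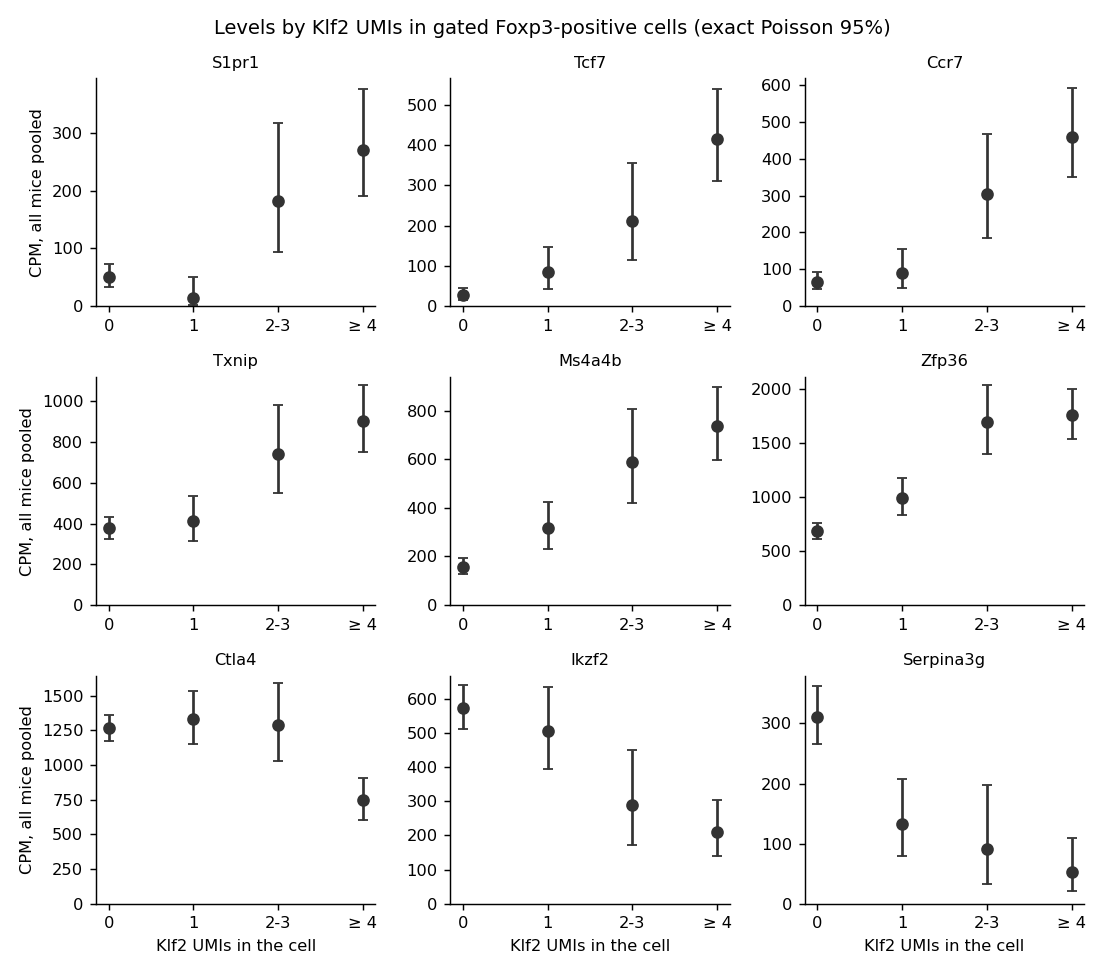
Pooled level (vertical axes, CPM) of 9 genes in gated Foxp3-positive cells by their Klf2 UMIs (horizontal axes); points are pooled values of all mice and bars exact Poisson 95% intervals. S1pr1 is high only from 2 Klf2 UMIs on, Tcf7, Ccr7, Ms4a4b and Zfp36 rise from 0 to 4 or more, and Ikzf2 and Serpina3g fall.

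The second comparison held Klf2 on both sides and set Klf2-positive regulatory T cells against Klf2-positive conventional CD4 T cells of the same 4 mice. Of 2386 genes tested, 314 were called (13.2%), 165 higher (6.92%) and 149 lower (6.24%) in the regulatory cells. Against all conventional CD4 T cells, which share the same regulatory cells and most of the same conventional cells, 251 of 2864 were called (8.76%), 141 higher (4.92%) and 110 lower (3.84%). With library totals the split became 211 higher and 102 lower in the first and 184 and 72 in the second, with the median of all genes at 0.13 and 0.09 on the log2 scale. The first count was 194 without LR mouse 2, 188 without PBS mouse 7 and 126 without PBS mouse 8, and the second 102, 151 and 124. Klf2 itself, which chose the cells, was lower in the regulatory cells (1327 against 2224 CPM pooled), and a Cd4 UMI was required only of the conventional cells.

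Regulatory T cell genes were far higher. In the Klf2-positive comparison 9 of 10 tested identity genes (of 20 on the list) were called higher, with a median log2 ratio of 2.81 beside 0.02 over all genes tested. Il2ra was at 145, 351, 285 and 192 CPM in the regulatory cells of LR mouse 2 and PBS mice 7, 8 and 9, and at 4.13 to 12.9 CPM in the conventional cells (log2 ratio 5.00 ± 0.42, edgeR adjusted p = 1.93e-07). Ikzf2 was even across mice, at 361, 363, 305 and 383 CPM against 8.60 to 15.7 CPM (4.63 ± 0.28, edgeR adjusted p = 5.64e-09). Ebi3, a subunit of the inhibitory cytokine IL-35, was called at a log2 ratio of 4.86 ± 0.74 (edgeR adjusted p = 0.000297), and Ctla4 at 2.87 ± 0.21 (edgeR adjusted p = 4.91e-08).

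Activation genes were higher as well, with 10 of 16 tested effector genes (of 24) and 5 of 8 tested costimulators (of 9) called higher and none lower. Tnfrsf9 was at 1952, 1113, 845 and 95.9 CPM in the regulatory cells of LR mouse 2 and PBS mice 7, 8 and 9, and at 8.51 to 24.97 CPM in the conventional cells (log2 ratio 5.56 ± 0.25, edgeR adjusted p = 9.01e-11). PBS mouse 9 was thus far below the other 3 mice for this gene. Klrg1, a receptor of terminally differentiated cells, was even, at 289, 302, 275 and 256 CPM against 0 to 18.6 CPM (5.13 ± 0.47, edgeR adjusted p = 6.53e-07). Tnfrsf4 (4.01 ± 0.25) and Gzmb (4.19 ± 0.31) were also called, with an edgeR adjusted p of 8.92e-09 and 4.91e-08, as was the chemokine receptor Ccr2 (2.42 ± 0.44, edgeR adjusted p = 0.00143).

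Outside the lists, the called genes with the highest log2 ratios included Ltb4r1, the leukotriene B4 receptor (4.32), Glrx, a redox enzyme (3.32), Pglyrp1, which binds bacterial cell wall (3.07), and the metallothionein gene Mt1 (2.87). Glrx was at 922, 423, 531 and 703 CPM in LR mouse 2 and PBS mice 7, 8 and 9, against 28.1 to 93.6 CPM. Of 11 tested glycolysis genes (of 14), 10 were called higher, among them Tpi1 (2.02 ± 0.36, edgeR adjusted p = 0.00101), Pkm (1.07 ± 0.17) and Gapdh (1.28 ± 0.21), with a list median of 1.07. Nfkbia, the inhibitor of NF-kB, and Dusp1, a phosphatase of MAP kinases, were called higher at 0.79 ± 0.12 and 0.87 ± 0.17, whereas Junb was called lower at -0.55 ± 0.14. Cd74 was higher in the regulatory cells here (2.20 ± 0.41, edgeR adjusted p = 0.00148).

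Resting genes were lower than in conventional cells that also had Klf2. Of 19 tested resting genes (of 20), 9 were called lower, none was called higher and all 19 had a log2 ratio below 0 (median -0.87). Tcf7 was at 90.4, 194, 334 and 511 CPM in the regulatory cells of LR mouse 2 and PBS mice 7, 8 and 9, and at 904, 763, 918 and 958 CPM in the conventional cells (log2 ratio -1.82 ± 0.24, edgeR adjusted p = 5.04e-05). Lef1 (-1.25 ± 0.22), Satb1 (-1.60 ± 0.27) and Bach2 (-1.48 ± 0.42), all factors of naive T cells, were also called. Bach2 lost its call without LR mouse 2 or without PBS mouse 8 (edgeR adjusted p = 0.0861 and 0.201).

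Of the homing list, 3 of 9 tested genes were called lower. S1pr1 was at 54.2, 121, 236 and 192 CPM in the regulatory cells of LR mouse 2 and PBS mice 7, 8 and 9, and at 280, 214, 390 and 281 CPM in the Klf2-positive conventional cells (log2 ratio -1.03 ± 0.26, edgeR adjusted p = 0.0142). Each mouse was lower in its regulatory cells, though the highest of these, PBS mouse 8, lay above the lowest conventional value. The call was lost without LR mouse 2 (edgeR adjusted p = 0.0628) and without PBS mouse 8 (edgeR adjusted p = 0.0727). Ccr7 (-1.22 ± 0.28, edgeR adjusted p = 0.00671) lost its call without PBS mouse 8 (edgeR adjusted p = 0.115), and Klf3, a KLF factor, was at -1.41 ± 0.28 (edgeR adjusted p = 0.00279). S1pr4, a related receptor, was at -0.08 ± 0.25 and not called (edgeR adjusted p = 0.911).

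Other lower genes included Pde3b, which breaks down cyclic AMP (-3.05 ± 0.53, edgeR adjusted p = 0.000955), and the membrane skeleton gene Epb41 (-2.65 ± 0.52). Pde3b had UMIs in the regulatory cells of PBS mouse 8 only of the 4 mice (39.3 CPM), against 94.9 to 139 CPM in the conventional cells. Cytosolic ribosomal protein genes were lower too: 47 of 75 tested (of 79) were called lower and none higher, with a median log2 ratio of -0.46. Pooled, they made up 181212 CPM in the Klf2-positive regulatory cells, 164450 in the Klf2-0 ones and 255901 in the Klf2-positive conventional cells. Mitochondrial UMIs were 1.33% to 1.68% per mouse in the Klf2-positive regulatory cells, 1.03% to 1.30% in the Klf2-0 cells and 1.83% to 2.03% in the Klf2-positive conventional cells; the part of RNA quality in these differences was not tested.

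Melanoma markers were at 0 in 6 of 7 genes, endothelial markers in 5 of 6 and gamma delta T cell markers in 4 of 5 in the 99 cells. Of 10 NK or cytotoxic markers, 7 had a UMI; they summed to 548 CPM (181 to 1002 per mouse), against 1239 CPM (245 to 1838) in the Klf2-0 cells and 456 CPM (261 to 762) in the Klf2-positive conventional cells. Ncr1, Klre1 and Gzma were at 0 in the members and in the Klf2-0 cells. Klrb1c and Eomes had a UMI in the members and were at 0 in the Klf2-0 cells. Of 7 B cell markers, 3 had a UMI; they summed to 187 CPM (121 to 256 per mouse), against 204 CPM (143 to 311) in the Klf2-0 cells and 185 CPM (106 to 224) in the Klf2-positive conventional cells, and Cd79a, Ms4a1 and Pax5 were among those at 0 in the members. The B cell marker Ebf1 had a UMI in the members and was at 0 in the Klf2-0 and the Klf2-positive conventional cells. The part of other cells in the differences was not tested. Scrublet marked 5 of the 99 as doublets, 4 of them in PBS mouse 7. A T cell receptor beta variable segment was read in 86 of the 99 cells, spread over 17 segments, with Trbv3 in 13 (15.1%) and Trbv13-2 in 11 (12.8%).

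The treatment comparison asked whether the share of Klf2-positive cells differed between LR and PBS mice. Klf2-positive cells made up 15 of 28, 4 of 11 and 9 of 36 gated regulatory T cells in LR mice 2 to 4, and 5 of 21, 21 of 45, 31 of 55 and 10 of 24 in PBS mice 6 to 9. LR mouse 1, with 4 of 7, had too few cells for the test. The mean share was 38.3% ± 14.4 (SD, n = 3) in LR and 42.1% ± 13.7 (SD, n = 4) in PBS mice. The difference of -3.81 percentage points was smaller than the spread within either group (two-sided exact permutation test, p = 0.714; the smallest p this design allows is 0.0286). With every cell thinned to 1500 UMIs before Foxp3 and Klf2 were read, the means were 26.7% and 25.9% over 8 mice; 485 of 3586 LR cells and 1066 of 7127 PBS cells were shallower and left out.

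**Figure D4:**
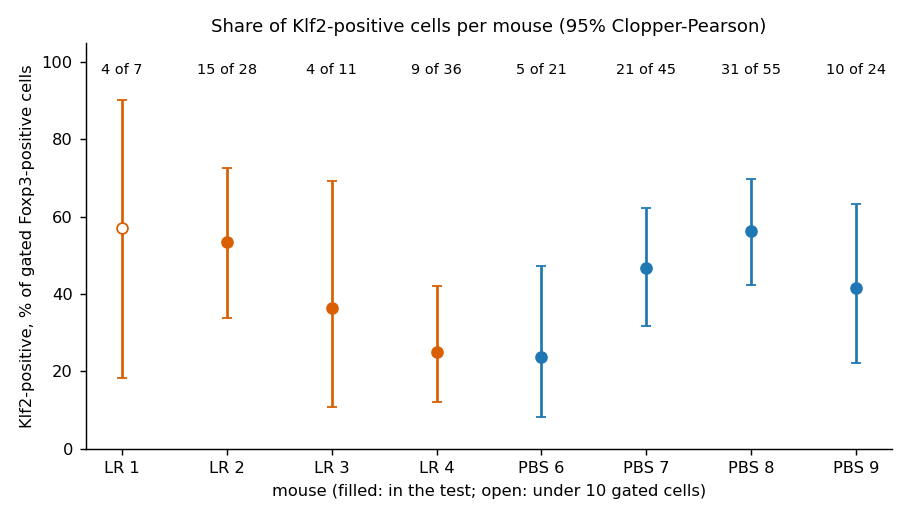
Klf2-positive cells as a percent of gated Foxp3-positive cells (vertical axis) in each mouse (horizontal axis; orange LR, blue PBS); points are shares and bars exact 95% Clopper-Pearson intervals, with cell numbers above. The LR mice in the test lie between 25% and 53.6% and the PBS mice between 23.8% and 56.4%.

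Expression in the Klf2-positive regulatory T cells could not be tested between treatments by the planned rule, since LR mouse 2 was the only LR mouse with at least 10 cells. With at least 5 cells per mouse, 2 LR mice (2 and 4) and 4 PBS mice (6 to 9) entered the fit, and 1 of 822 genes was called (0.122%). Igfbp4 was at 18.1 and 0 CPM in LR mice 2 and 4 and at 181, 544, 285 and 415 CPM in PBS mice 6 to 9, without overlap (log2 ratio -4.81 ± 0.79, edgeR adjusted p = 0.00358). This rests on 1 UMI in the cells of LR mice 2 and 4 against 89 in those of PBS mice 6 to 9. The ratio of levels was 0.0300, with an exact counting interval of 0.000752 to 0.172. No gene was called in DESeq2 (30 with an unadjusted p under 0.05, against 62 in the edgeR test), without LR mouse 4 (84) or without PBS mouse 7 (31), while 9 were called without LR mouse 2 and 2 without PBS mouse 6 or 9. For Igfbp4 these gave no call in DESeq2 (adjusted p = 0.155) or without LR mouse 4 (edgeR adjusted p = 0.182).

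Several other genes came close without a call. Ccr7 was at 72.3 and 0 CPM in the LR mice and at 453, 327, 285 and 863 CPM in the PBS mice (log2 ratio -3.16 ± 0.69, edgeR adjusted p = 0.0541). Pdcd1, an inhibitory receptor gene, was at 398 and 440 CPM against 0, 72.6, 118 and 95.9 CPM (2.15 ± 0.48, edgeR adjusted p = 0.0541). Tigit was at 831 and 1930 CPM against 544, 351, 452 and 543 CPM (1.57 ± 0.36, edgeR adjusted p = 0.0624), and Ctla4 at 1.40 ± 0.38 (edgeR adjusted p = 0.129). Neither group overlapped the other for these 4 genes, which were chosen after their values were seen. With so few mice, Btg1 and Cd28 did not overlap either, though far from a call (edgeR adjusted p = 0.885 for each). The share of all genes tested without overlap is not given, so the separation adds no support to these genes. Of the lists, 12 effector genes were tested, 11 were above 0 and the median was 0.65, beside 0.02 over all genes. Of 11 resting genes tested, 4 were above 0 (median -0.29). All 9 glycolysis genes (median 0.58) and all 7 costimulators tested (median 0.46) were above 0, as were 7 of 74 ribosomal protein genes (median -0.24), and none of these lists held a call. Members with 1 Foxp3 UMI were 4 of 15 and 3 of 9 in LR mice 2 and 4, and 3 of 5, 12 of 21, 17 of 31 and 4 of 10 in PBS mice 6 to 9. In LR mice 1 and 3, outside the fit, they were 2 of 4 and 1 of 4. Among members with 2 or more Foxp3 UMIs, Igfbp4 was at 0 CPM in LR mice 2 and 4. In PBS mice 7, 8 and 9 it was at 575, 49.0 and 0 CPM. Ccr7 in the same cells was at 67.8 and 0 CPM against 263, 65.3 and 872 CPM, so both genes overlapped there. Pdcd1, Tigit and Ctla4 did not overlap between these mice. The share of all genes without overlap is not given here either, so this too adds no support. Neither the share of members with 1 Foxp3 UMI nor its part in the differences was tested between treatments.

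**Figure D5:**
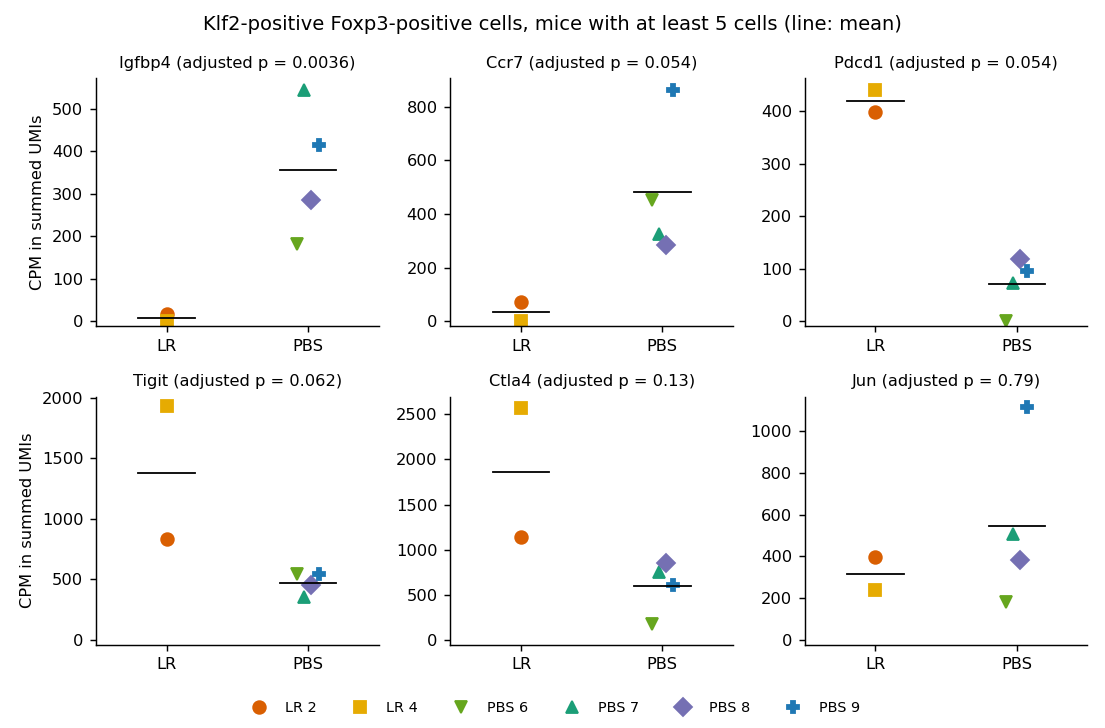
Level per mouse (vertical axes, CPM in summed UMIs) of 6 genes in Klf2-positive regulatory T cells of LR and PBS mice (horizontal axes); points are mice with at least 5 cells and lines group means. Both LR mice lie below all 4 PBS mice for Igfbp4 and Ccr7 and above them for Pdcd1, Tigit and Ctla4, while Jun overlaps.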

How the data were processed

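The deposited matrix holds raw UMI counts of 32285 genes and 9 hashtags for 16969 barcodes, made by the authors with Cell Ranger 4.0.0 on GRCm38, per the submitters' processing notes. Replicates are mice, read from the hashtag names. Counts were summed per mouse and gate, and mice with at least 10 cells in both gates were tested with edgeR 4.0.16 (quasi-likelihood, TMM factors, filterByExpr, Benjamini-Hochberg adjustment at 0.05) in R 4.3.3, with the mouse as a block because both gates come from the same animal. The 9 genes that set the gates were left out of the tests and of the library totals used in them. CPM are summed UMIs per 1000000 UMIs of all genes, those 9 included, without TMM factors. The model script was tested on simulated data. Shares were compared by an exact permutation test (scipy 1.17.1). Doublets were marked with Scrublet (scanpy 1.11.5, expected rate 0.1) and kept in the main gates. Members and gene lists were chosen with earlier results of these data known. Named genes were a fixed set of regulatory T cell and homing genes, up to 3 called members of each list, and the 8 highest and 8 lowest called genes outside the lists detected in at least 10% of either gate; 1 gene of the homing list is not reported here, and other names are said to be chosen after their values were seen. Alternatives were DESeq2 1.42.0, library totals, no filter, no block, other gates and depths, and each mouse left out.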

Additional observations from a re-analysis of the deposited data

Results flagged for a closer look

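In 41 sets of 4 mouse values, a value was set apart where its gap to the nearest other exceeded Dixon's 95% limit, which chance passes in about 1 set in 20. In Klf2-0 regulatory T cells, PBS mouse 7 stood above the other mice in Ccr7 (273 CPM) and Igfbp4 (182 CPM), and LR mouse 2 stood above them in Il2ra (486 CPM). In Klf2-positive regulatory T cells, PBS mouse 9 stood above in Jun (1118 CPM) and LR mouse 2 below in Lef1 (54.2 CPM). These gene sets cover LR mouse 2 and PBS mice 7, 8 and 9 only; with fewer than 10 cells, LR mouse 4 was at 67.7 CPM and PBS mouse 6 at 0 CPM in Lef1. The hashtag named for LR mouse 5, which no comparison used, had 5699 UMIs over 3601 barcodes, at most 181 in a barcode, and led in 0 barcodes.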

How the results depend on the processing

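The 9 genes called between Klf2-positive and Klf2-0 regulatory T cells became 0 in DESeq2 (37 with an unadjusted p under 0.05), 0 with library totals (128) and 0 with no replicate block (134). They became 33 of 11594 without the filter, 14 without Scrublet doublets, 15 with mice of at least 5 cells, 2 when thinned to 1500 UMIs, 31 with at least 2 Klf2 UMIs and 20 against Klf2-0 cells at least as deep. With gates chosen after seeing the data they became 29 (a Cd4 UMI required) and 0 (at least 2 Foxp3 UMIs, mice of at least 5 cells; 60 with an unadjusted p under 0.05); leaving out 1 mouse gave 0 to 26. Against conventional CD4 T cells, 251 became 156 in DESeq2, 465 without the filter, 160 with no replicate block, 160 thinned, 73 with at least 2 Klf2 UMIs, 469 with at least 2 Foxp3 UMIs, 118 with a Cd4 UMI, and 102 to 319 with 1 mouse left out. Against Klf2-positive conventional cells, 314 became 193 in DESeq2, 513 without the filter, 187 thinned, 117 with at least 2 Klf2 UMIs, and 126 to 363 with 1 mouse left out; with no replicate block it was 230. Between LR and PBS mice, 1 became 0 in DESeq2 (30 with an unadjusted p under 0.05), 7 without the filter, and 0 to 9 with 1 mouse left out, where LR mouse 2 or 4 alone is assumed to vary like the PBS mice. The difference of LR against PBS in share of Klf2-positive cells, -3.81 percentage points, turned to 0.801 thinned and 5.58 with at least 2 Foxp3 UMIs, and lay between -11.4 and 2.84 with 1 mouse left out; it was 2.84 without LR mouse 4 and 0.931 without PBS mouse 8. The cause was not tested for any of these. No named gene reversed; outside the omissions of a mouse, 49 of the values for genes called between the 2 regulatory gates lost their call and 55 kept it, against 37 and 445 in the comparison with Klf2-positive conventional cells. The alternative of a 95% hashtag share could not be fitted in any expression comparison, nor could 2 Foxp3 UMIs with at least 10 cells between the regulatory gates. Mouse numbers pair no LR with PBS mice. With 99 cells, genes of few UMIs such as S1pr1 and Tcf7 fell below the filter.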
